A study of Mus musculus with 12 samples.

Results

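ATP-binding cassette (ABC) transporters are membrane proteins that use the energy of ATP to move lipids, bile salts, drugs, conjugates, peptides or ions across membranes, with a soluble branch that acts on ribosomes instead. They were taken here as every gene whose mouse symbol, found through the RefSeq accession of a probe, begins with Abc, a subfamily letter from a to g and a number. The rule found 50 genes with 88 probes among 31758 genes with 41174 probes, and 39 of the 50 were bright enough to be tested. Subfamily A held 16 genes, of which 10 were tested, subfamily B held 10 with 9 tested, and subfamily C held 10 with 8 tested. Subfamily D held 4 genes, subfamily E held 1 and subfamily F held 3, all tested, and subfamily G held 6 with 4 tested.

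The arrays were 12 Agilent arrays of total RNA labelled with Cy3, a single dye. There were 4 of mouse embryonic stem cells (mESC), 4 of cells at day 9 and 4 of cells at day 14 of cardiomyocyte differentiation on culture plates whose coating was crosslinked ELP, an elastin-like polypeptide, which is a protein polymer modelled on elastin. One and the same growth text stands for all samples: 2 days in stem cell medium lacking LIF, the factor that holds mouse stem cells undifferentiated, and then 12 days in GMEM, a basal medium, with serum replacement. It gives neither the cell line nor the day on which the mESC samples were taken, nor whether those stood on ELP. The labels do not say that replicates came from separate cultures, so the p-values below rest on a spread between arrays that may be technical only. The 4 arrays of a group shared 1 slide and 1 scan, and no slide held 2 groups, so effects of slide and of group cannot be told apart.

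Signal was lowest in mESC, with a 75th percentile of 345.9 to 386.2, and higher at day 9 (395.1 to 438.4) and day 14 (463.4 to 507.7). Between 59.5% and 67.9% of probes stood above background on an array. Arrays of the same group correlated at 0.989 to 0.996 over probes and arrays of different groups at 0.797 to 0.957, given as a description across genes. All 6 markers of pluripotent cells fell and all 8 markers of cardiomyocytes rose at both days against mESC. Markers of other lineages rose with them: 6 of 7 tested genes of hepatocytes and visceral endoderm, 7 of 7 of fibroblasts and 7 of 7 of smooth muscle and pericytes at both days, and 8 of 9 of macrophages at day 14. Markers of several lineages thus stood side by side in the same samples. In bulk RNA, fewer cells of a type and less RNA per cell cannot be told apart.

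ABC transporters are built from membrane-spanning domains joined to nucleotide-binding domains, and members that carry 1 domain of each kind pair up to make a working unit. Subfamily A moves lipids, B holds drug and bile exporters together with smaller mitochondrial transporters, C moves conjugates and includes the sulphonylurea receptors that regulate potassium channels, D serves peroxisomes and lysosomes, and G moves sterols and drugs. Subfamilies E and F have no membrane-spanning part and act in translation. In stem cells the family is best known for Abcg2, the exporter behind dye-excluding side populations, and for the P-glycoproteins that remove drugs and dyes from cells.

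Values are the log2 signal of a gene's brightest tested probe minus the 75th percentile of its array, called the scaled signal here, so 0 is the 75th percentile. They compare a gene between groups and not genes with each other, because probes differ in brightness. A gene was called higher or lower at an adjusted p under 0.05 in limma's moderated test, fitted over all 20876 genes, with a log2 fold change of at least 1. The words rose and fell are used only of such calls. Where all probes of a gene lay near background throughout a group, the difference is given as a lower bound on the fold, from the dimmest signal measurable on each array of that group.

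At day 9 against mESC, 11 of the 39 tested transporters rose and 15 fell, while over all genes 20.0% rose and 21.0% fell (41.0% in either direction). At day 14 against mESC, 12 rose and 14 fell, while over all genes 22.8% rose and 24.1% fell (46.9% in either direction). Between day 14 and day 9, 10.2% of all genes rose and 3.61% fell. These shares stand beside every count of a subfamily, partner list or marker list, above and below. Counts of small sets near these shares are not results about the set. The median log2 fold change of the tested transporters was −0.43 at day 9 and −0.23 at day 14 against mESC, beside −0.16 and −0.19 over all genes. With genes below background in a group set to their bound, the transporters' medians were −0.22 at day 9 and 0.00 at day 14. Of the 39, 10 rose and 13 fell at both days, and 9 were called in none of the 3 comparisons. No transporter was called in opposite directions at the 2 days against mESC.

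Several rising genes were dim. No probe was above background on any mESC array for 5 of the 11 genes that rose at day 9 (Abca4, Abca8b, Abca9, Abcc9 and Abcd2), nor for 6 of the 12 that rose at day 14 (the same 5 and Abca6). A member that passed the brightness filter only through the differentiated groups had little room to fall: 6 passed through both days but not mESC, and 3 through 1 day only. With normexp, a background correction that lifts all dim spots by an offset of 50, the count of rising genes was 2 at day 9 (Abcb9 and Abcg2) and 7 at day 14 against mESC, and 12 of the 15 falling genes at day 9 and 12 of the 14 at day 14 were still called. With only probes above background on all arrays, 4 rose at day 9 and 3 at day 14.

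**Figure D1:**
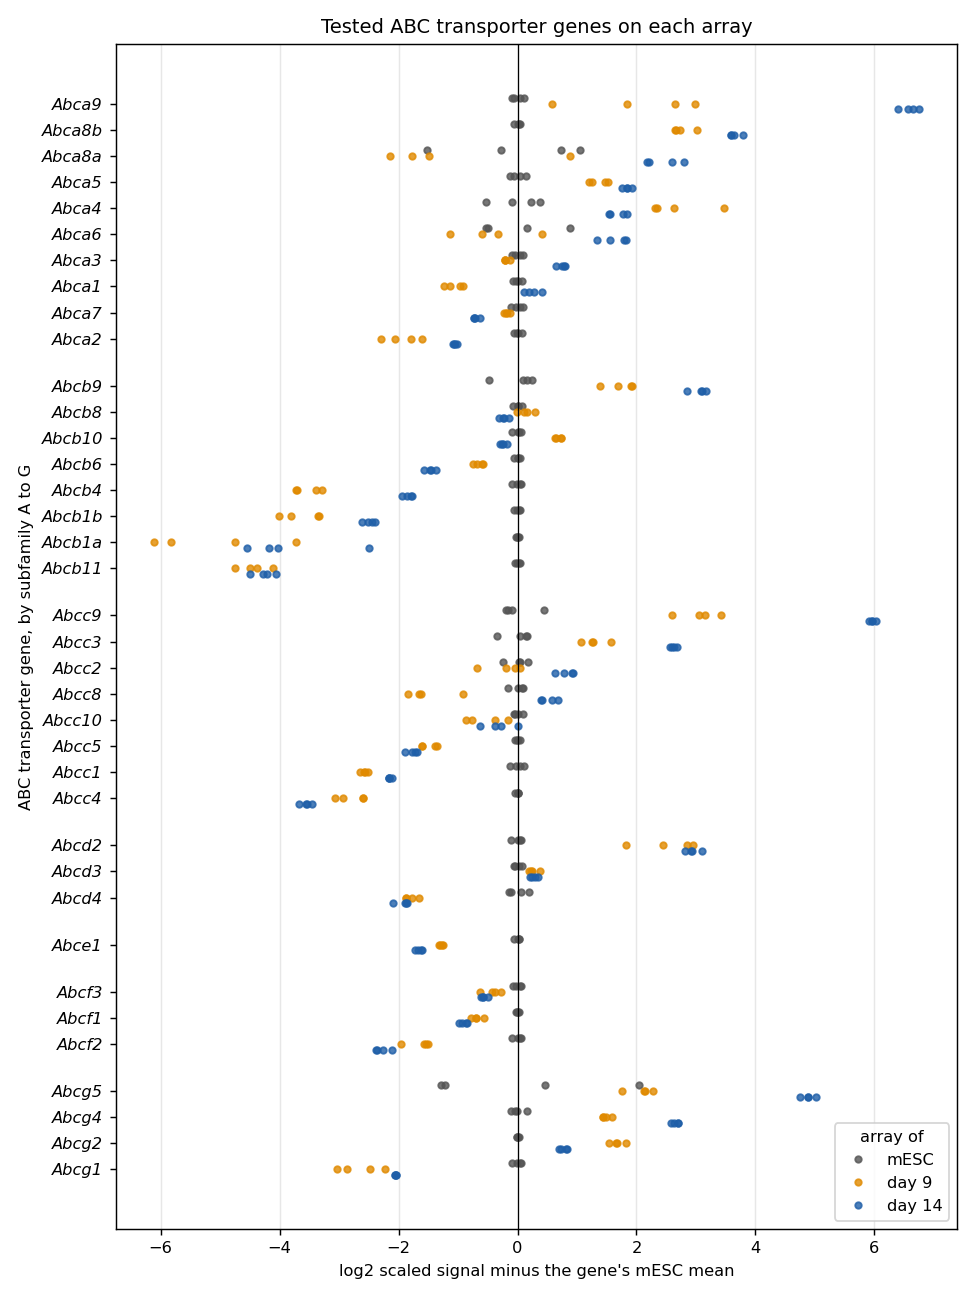
Scaled log2 signal on each of the 12 arrays, minus the gene's own mESC mean, for 37 of the 39 tested transporters in order of subfamily; each point is 1 array. Abcb1a, Abcb1b, Abcb4 and Abcb11 lie far to the left of 0 at both days, and Abca9, Abcc9 and Abcg5 lie farthest to the right at day 14.

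The clearest block of falling genes lay in subfamily B, among the exporters of the plasma membrane. Of its 9 tested genes, 1 rose and 5 fell at day 9 against mESC, with a median log2 fold change of −1.08, and 1 rose and 6 fell at day 14, with a median of −1.84. Over the alternative settings these medians ran from −1.61 to −0.66 at day 9 and from −2.16 to −1.14 at day 14. Abcb1a and Abcb1b encode the mouse P-glycoproteins, which pump many drugs out of cells. Abcb4 encodes the flippase that delivers phosphatidylcholine to bile, and Abcb11 the bile salt export pump, both best known from hepatocytes. Abcb1a, Abcb1b and Abcb4 follow one another on chromosome 5, and all 3 fell at both days. Abcb1a passed the brightness filter through mESC only, so it had little room to be called higher against mESC. Abcb1b and Abcb4 passed it through every group. Their promoter sequences are shown because the genes are neighbours that moved the same way.

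The promoters are RefSeq's for build GRCm38.p6, from 250 bases before to 50 bases after the start, on the strand of the gene: Abcb1a at chr5:8566841-8567140 and Abcb1b at chr5:8797897-8798196 and Abcb4 at chr5:8893471-8893770, all on the plus strand. Capitals mark matches, on either strand, to 7 motifs that were searched: the TATA box with the letters TATAAA, the CCAAT box, the E-box with CACGTG, the GATA motif with GATAA, the orphan receptor site with CAAGGTCA, the DR4 repeat read by LXR, and the GC box with GGGCGG. No matches overlapped in the promoters shown.
Abcb1a: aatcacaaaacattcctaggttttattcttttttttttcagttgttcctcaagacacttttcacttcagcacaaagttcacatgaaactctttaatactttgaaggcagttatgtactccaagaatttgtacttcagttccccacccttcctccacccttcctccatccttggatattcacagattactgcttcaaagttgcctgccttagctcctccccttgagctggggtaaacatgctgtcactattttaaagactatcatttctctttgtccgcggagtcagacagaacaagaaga
Abcb1b: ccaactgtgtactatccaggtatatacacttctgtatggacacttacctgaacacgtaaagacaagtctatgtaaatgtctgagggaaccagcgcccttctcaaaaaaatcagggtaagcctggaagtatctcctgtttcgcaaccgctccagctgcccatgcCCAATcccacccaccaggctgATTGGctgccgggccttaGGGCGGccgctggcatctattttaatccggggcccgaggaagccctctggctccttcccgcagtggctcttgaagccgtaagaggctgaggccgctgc
Abcb4: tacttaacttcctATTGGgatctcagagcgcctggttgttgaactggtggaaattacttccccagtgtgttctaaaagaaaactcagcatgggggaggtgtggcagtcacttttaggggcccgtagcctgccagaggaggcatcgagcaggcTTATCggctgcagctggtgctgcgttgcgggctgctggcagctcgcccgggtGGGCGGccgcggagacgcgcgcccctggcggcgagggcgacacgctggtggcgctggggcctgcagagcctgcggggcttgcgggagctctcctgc
In these windows Abcb1a held none of the 7 motifs, Abcb1b held 2 CCAAT boxes and a GC box, and Abcb4 held a CCAAT box, a GATA motif and a GC box. Of 32851 promoters of all genes, 37.4% held the CCAAT box, 25.4% the GATA motif and 35.7% the GC box, whatever the number of matches. The TATA box was held by 13.6%, the E-box by 7.15%, the orphan receptor site by 1.56% and the DR4 repeat by 0.0152%. The share of G and C was 40.3% for Abcb1a, 55% for Abcb1b and 64% for Abcb4, with 2, 12 and 21 CpG pairs, so the 3 neighbours had unlike promoters by these measures. A match describes letters only, and no match says only that the letters are not in this window.

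Abcb1b stood at 2.17, 2.12, 2.16 and 2.07 on the mESC arrays, −1.22, −1.88, −1.68 and −1.22 at day 9 and −0.32, −0.48, −0.27 and −0.39 at day 14. No array of one group reached those of another. Its signal fell 12.4-fold at day 9 against mESC (log2 fold change −3.63 ± 0.13 SE, adjusted p = 2.58e-10) and 5.64-fold at day 14 against mESC (−2.50 ± 0.13, adjusted p = 5.67e-09). Between day 14 and day 9 it rose by 1.13 ± 0.13 (adjusted p = 2.31e-05), a call that was not kept by another of its probes (0.83), with normexp (0.86), with median scaling (0.94) or with the mean over its probes (0.76).

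Abcb4 stood at 2.07, 2.11, 1.98 and 2.13 on the mESC arrays, −1.31, −1.66, −1.64 and −1.22 at day 9 and 0.28, 0.12, 0.30 and 0.21 at day 14. The groups did not overlap, and day 14 lay between day 9 and mESC. Its log2 fold change was −3.53 ± 0.10 at day 9 (adjusted p = 2.3e-11) and −1.84 ± 0.10 at day 14 against mESC (adjusted p = 4.91e-09), and 1.69 ± 0.10 at day 14 against day 9 (adjusted p = 8.28e-08). A second probe of Abcb4, above background on 3 day 14 arrays and on no other array, gave the opposite call at day 14 against mESC (1.06). The mean over its probes gave −0.39 there and ended the call.

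Abcb1a was above background on all 4 mESC arrays but on 1 of 4 arrays at each day. It stood at −1.63, −1.65, −1.69 and −1.66 on the mESC arrays, −7.49, −6.40, −5.38 and −7.77 at day 9 and −4.16, −5.69, −5.83 and −6.20 at day 14. Every differentiated array lay below every mESC array, and the 2 days overlapped. It fell by 5.10 ± 0.53 on the log2 scale at day 9 (adjusted p = 2.79e-06) and by 3.81 ± 0.53 at day 14 against mESC (adjusted p = 3.29e-05), and with normexp the day 14 difference was −0.97 and not called. Its difference of 1.29 between day 14 and day 9 missed the threshold (adjusted p = 0.0528), and it was called without day 9 replicate 3 (1.75), without day 14 replicate 4 (1.53) and with an intensity trend. Probe sequences were not used here, so signal shared between the related genes Abcb1a and Abcb1b cannot be told apart from signal of each gene.

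Abcb11 stood at −0.78, −0.82, −0.76 and −0.85 on the mESC arrays, −5.30, −4.92, −5.55 and −5.19 at day 9 and −4.87, −5.01, −5.29 and −5.09 at day 14. The 2 days overlapped and lay more than 4 below every mESC array, and 2 of 4 day 9 arrays were above background. Its signal fell 21.6-fold at day 9 (−4.44 ± 0.12, adjusted p = 2.34e-11) and 19.2-fold at day 14 against mESC (−4.26 ± 0.12, adjusted p = 2.49e-11). Over the same arrays the summed level of the hepatocyte and visceral endoderm markers, as log2 of their summed scaled signal, was −2.64 to −2.02 in mESC, 5.29 to 6.04 at day 9 and 7.59 to 7.69 at day 14. Against mESC the summed level, which follows its brightest genes, was higher at both days, while Abcb11 was lower. Between day 14 and day 9 Abcb11 gave 0.17 and was not called. The part of these markers in the level of Abcb11 was not tested.

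The remaining tested members of subfamily B differed among themselves. Abcb9, a lysosomal peptide transporter, stood at −2.43, −2.51, −2.59 and −3.16 in mESC, −0.75, −1.29, −0.98 and −0.77 at day 9 and 0.50, 0.42, 0.42 and 0.17 at day 14. It was the only gene of its subfamily to rise against mESC, 3.30-fold at day 9 (1.72 ± 0.17, adjusted p = 1.51e-06) and 8.29-fold at day 14 (3.05 ± 0.17, adjusted p = 6.95e-09), and it kept all 3 of its calls with normexp.

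Abcb6, a porphyrin transporter, stood at 1.44 to 1.55 in mESC, 0.75 to 0.91 at day 9 and −0.07 to 0.14 at day 14. It fell by 1.47 ± 0.06 at day 14 against mESC (adjusted p = 2.43e-10), while its difference of −0.66 at day 9 was under the size a call needs. Abcb10, which acts in mitochondrial haem synthesis, and Abcb8, another mitochondrial member, were called in no comparison. Abcb10 gave 0.68 at day 9 and −0.25 at day 14 against mESC, and Abcb8 gave 0.14 and −0.23. With normexp Abcb10's day 14 difference was 0.11. Of 15 tested genes of haem and iron-sulphur synthesis, 1 rose and 1 fell at each day against mESC. Alas2, the gene of an aminolevulinate synthase at the start of haem synthesis, was at least 2.70-fold higher at day 9, the haem enzyme gene Alad rose at day 14 (1.26), and the cysteine desulphurase gene Nfs1 fell at both (−1.35 and −1.19). Alas2 also fell between day 14 and day 9 (−1.10), the only one of the 15 called there. Abcb5 was not well above background on any array.

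**Figure D2:**
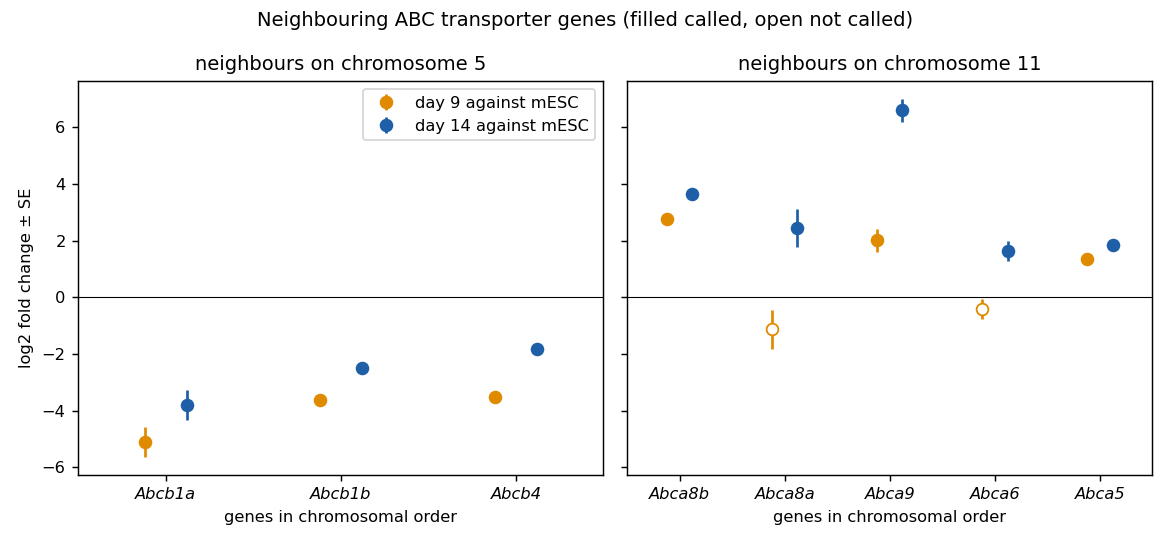
Log2 fold change ± SE at day 9 and day 14 against mESC for neighbouring transporter genes in chromosomal order on chromosome 5 (left) and chromosome 11 (right); filled points are calls and open points are not. All 3 genes on chromosome 5 fell at both days, of which Abcb1a passed the brightness filter through mESC only. All 5 on chromosome 11 rose at day 14. Of these, Abca8b, Abca9 and Abca6 were below background in mESC, so the heights of their points are not bounds.

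Subfamily A, the lipid transporters, held 6 of the 12 transporters that rose at day 14 against mESC. Of its 10 tested members, 4 rose and 2 fell at day 9 against mESC, and 6 rose and 1 fell at day 14. The median log2 fold change was −0.18 at day 9 and 1.65 at day 14 against mESC. With genes below background at their bound the day 14 median was 0.50, and over the alternative settings it ran from −0.17 with no filter on dim probes to 1.73. Abca8b, Abca8a, Abca9, Abca6 and Abca5 stand in this order on chromosome 11. They form a closely related group of lipid transporters whose substrates are less well defined. All 5 rose at day 14 against mESC, and the promoters of the 3 that head the row are shown for that reason. Abca8b and Abca9 passed the brightness filter through both days but not mESC, and Abca8a and Abca6 through day 14 only. These genes thus had little room to fall against mESC, and their shared direction was largely set by the filter.

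The promoters, again from RefSeq and GRCm38.p6 with capitals for the same motifs, lie at chr11:109995796-109996095 for Abca8b, chr11:110095888-110096187 for Abca8a and chr11:110168104-110168403 for Abca9, all on the minus strand.
Abca8b: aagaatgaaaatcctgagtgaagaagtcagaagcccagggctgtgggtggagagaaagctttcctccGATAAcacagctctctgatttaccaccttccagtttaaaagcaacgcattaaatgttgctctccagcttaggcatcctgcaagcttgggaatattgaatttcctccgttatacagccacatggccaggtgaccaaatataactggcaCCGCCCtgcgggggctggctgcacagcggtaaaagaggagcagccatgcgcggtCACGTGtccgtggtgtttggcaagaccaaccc
Abca8a: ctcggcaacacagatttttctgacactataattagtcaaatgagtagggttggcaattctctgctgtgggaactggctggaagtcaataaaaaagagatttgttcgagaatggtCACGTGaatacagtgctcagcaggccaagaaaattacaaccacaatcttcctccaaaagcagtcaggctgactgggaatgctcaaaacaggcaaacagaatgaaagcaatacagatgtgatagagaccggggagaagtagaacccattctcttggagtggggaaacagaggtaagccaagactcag
Abca9: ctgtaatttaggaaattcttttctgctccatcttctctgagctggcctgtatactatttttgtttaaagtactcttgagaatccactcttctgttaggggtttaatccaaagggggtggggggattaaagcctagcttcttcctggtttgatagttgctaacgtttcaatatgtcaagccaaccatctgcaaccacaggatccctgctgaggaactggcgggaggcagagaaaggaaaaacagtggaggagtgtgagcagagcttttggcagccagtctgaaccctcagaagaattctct
Abca8b and Abca8a each held an E-box, which 7.15% of all promoters held. Abca8b held a GATA motif and a GC box as well, and Abca9 held none of the 7 motifs. Their G and C shares were 51.3%, 44.3% and 45.3%, beside a median of 52.67% over all promoters and 57% over the 45 promoters of 38 transporters that the table held.

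Abca9 stood at −7.64, −7.77, −7.57 and −7.74 on the mESC arrays, −4.70, −7.10, −5.84 and −5.03 at day 9 and −1.02, −1.11, −0.93 and −1.28 at day 14. It was above background on no mESC array, on 3 of 4 at day 9 and on all 4 at day 14. It was at least 19.4-fold higher at day 14 than in mESC, with means of −1.08 ± 0.15 and −7.68 ± 0.09 (SD, n = 4 each, adjusted p = 1.94e-08). Between day 14 and day 9 it rose by 4.58 ± 0.41 (adjusted p = 2.39e-06). It was also called at day 9 against mESC (means −5.67 ± 1.07 and −7.68 ± 0.09, adjusted p = 0.000668), where the signal was too near background for a fold. Its other probes gave −0.30 and 0.07 there and 2.39 and 2.35 at day 14 against mESC, so the size depends on the probe.

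Abca8b stood at −7.13, −7.21, −7.11 and −7.15 on the mESC arrays, where it was not above background, −4.42, −4.49, −4.50 and −4.14 at day 9 and −3.52, −3.55, −3.35 and −3.55 at day 14. The 3 groups did not overlap. It was at least 1.96-fold higher at day 9 (adjusted p = 3.55e-11) and at least 3.64-fold higher at day 14 than in mESC (adjusted p = 3.12e-12). Its difference of 0.89 between day 14 and day 9 was under the size a call needs.

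Abca8a was above background on 1 mESC array and 1 day 9 array, and on all 4 at day 14. It stood at −7.37, −6.13, −5.11 and −4.80 in mESC, −7.62, −7.35, −4.98 and −8.00 at day 9 and −3.64, −3.05, −3.67 and −3.25 at day 14. The day 14 arrays lay above all others, and mESC and day 9 overlapped. It rose by 2.45 ± 0.68 at day 14 against mESC (adjusted p = 0.00548) and by 3.59 ± 0.68 at day 14 against day 9 (adjusted p = 0.000782). At day 9 against mESC it gave −1.13 ± 0.68 (adjusted p = 0.141), and it was called lower there without mESC replicate 1 (−1.64) or without day 9 replicate 3 (−1.80).

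Abca6 was above background only at day 14, on 3 of 4 arrays, with −7.52, −6.84, −7.50 and −6.11 in mESC, −7.31, −7.59, −8.12 and −6.58 at day 9 and −5.65, −5.20, −5.44 and −5.16 at day 14. It was at least 1.31-fold higher at day 14 than at day 9 (means −5.36 ± 0.23 and −7.40 ± 0.64, adjusted p = 0.000451) and was called against mESC too (adjusted p = 0.00118), with no fold to give. Abca5, which is expressed more widely, stood at −2.96, −2.77, −3.04 and −2.86 in mESC, −1.44, −1.71, −1.65 and −1.39 at day 9 and −1.14, −1.07, −1.06 and −0.99 at day 14. It rose by 1.36 ± 0.08 at day 9 (adjusted p = 1.89e-08) and by 1.84 ± 0.08 at day 14 against mESC (adjusted p = 1e-09). Its other tested probes gave 0.40 and 0.59 at day 9 and 0.44 and 0.76 at day 14, none of them called. The day 9 call was lost with the mean over its probes (0.78) and with normexp (0.66). With normexp, Abca9 and Abca5 kept their day 14 calls against mESC, and Abca8b (0.84), Abca8a (0.68) and Abca6 (0.44) did not. The array cannot tell how far Abca8a, Abca8b and Abca9, which are closely related, share signal, since probe sequences were not used here.

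Markers of fibroblasts and of macrophages moved over the same arrays. The summed level of the fibroblast markers was −0.06 to 0.04 in mESC, 7.88 to 8.70 at day 9 and 9.06 to 9.20 at day 14, with 4 of 7 below background on every mESC array. That of the macrophage markers was 0.58 to 0.82 in mESC, −1.25 to −0.91 at day 9 and 4.23 to 4.54 at day 14. In mESC 6 of the 9 were below background on every array, and the sum there followed Cd68, its brightest gene. At day 9 against mESC 2 rose and only Cd68 fell (−4.11), with a median of 0.56. All 9 macrophage genes rose between day 14 and day 9. Their part in the transporter levels was not tested.

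Abca4, the flippase of photoreceptors, went the other way between the days. It was not above background in mESC (−6.69, −6.83, −7.15 and −7.59), stood at −3.59, −4.76, −4.44 and −4.72 at day 9 and at −5.30, −5.51, −5.22 and −5.52 at day 14. The gene was at least 1.98-fold higher at day 9 than in mESC (adjusted p = 1.46e-06), and the day 14 level was too near background for a fold. It was the only transporter lower at day 14 than at day 9, with −1.01 ± 0.26 (adjusted p = 0.00556). That call was lost without day 9 replicate 1 (−0.75), without day 14 replicate 2 (−0.97) or without day 14 replicate 4 (−0.97), and with normexp the sign turned (0.19).

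The sterol exporter Abca1, which loads cholesterol onto apolipoprotein A-I, stood at 0.24, 0.17, 0.09 and 0.14 in mESC, −1.08, −0.76, −0.98 and −0.81 at day 9 and 0.36, 0.27, 0.57 and 0.44 at day 14. Day 9 lay below and day 14 above every mESC array. It fell by 1.07 ± 0.08 at day 9 against mESC (adjusted p = 2.04e-07), rose by 1.32 ± 0.08 at day 14 against day 9 (adjusted p = 1.66e-07), and differed by 0.25 ± 0.08 between day 14 and mESC. The day 9 call against mESC was lost with quantile normalization (−0.99) and with normexp (−0.79), and the day 14 difference from mESC was −0.07 with median scaling. Macrophages, whose markers rose between the days, are a known site of Abca1, and their part in its level was not tested.

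Abca2, a lysosomal lipid transporter best known from the nervous system, stood at −0.99, −1.13, −1.08 and −1.06 in mESC, −3.12, −2.67, −2.85 and −3.37 at day 9 and −2.11, −2.07, −2.13 and −2.15 at day 14. It fell by 1.94 ± 0.12 at day 9 (adjusted p = 2.48e-08) and by 1.05 ± 0.12 at day 14 against mESC (adjusted p = 5.59e-06), the second only under some settings (−0.52 with normexp and −0.97 with the percentile taken over probes). Abca3, which fills the lamellar bodies of lung cells with surfactant lipid, gave −0.19 at day 9 and 0.74 at day 14 against mESC. Abca7, a phospholipid transporter linked to phagocytosis, gave −0.18 and −0.71, and neither gene was called. Of 4 tested genes of lamellar bodies and skin lipids, none rose and 1 fell at both days, and none was called between the days. The 1 that fell was the skin lipoxygenase gene Aloxe3, at least 6.93-fold lower at day 9 and −2.42 at day 14 against mESC. Abca12, the lipid transporter of skin, was above background on at most 6 of 12 arrays and was not tested. Abca13, Abca14, Abca15, Abca16 and Abca17 were above background on no array.

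**Figure D3:**
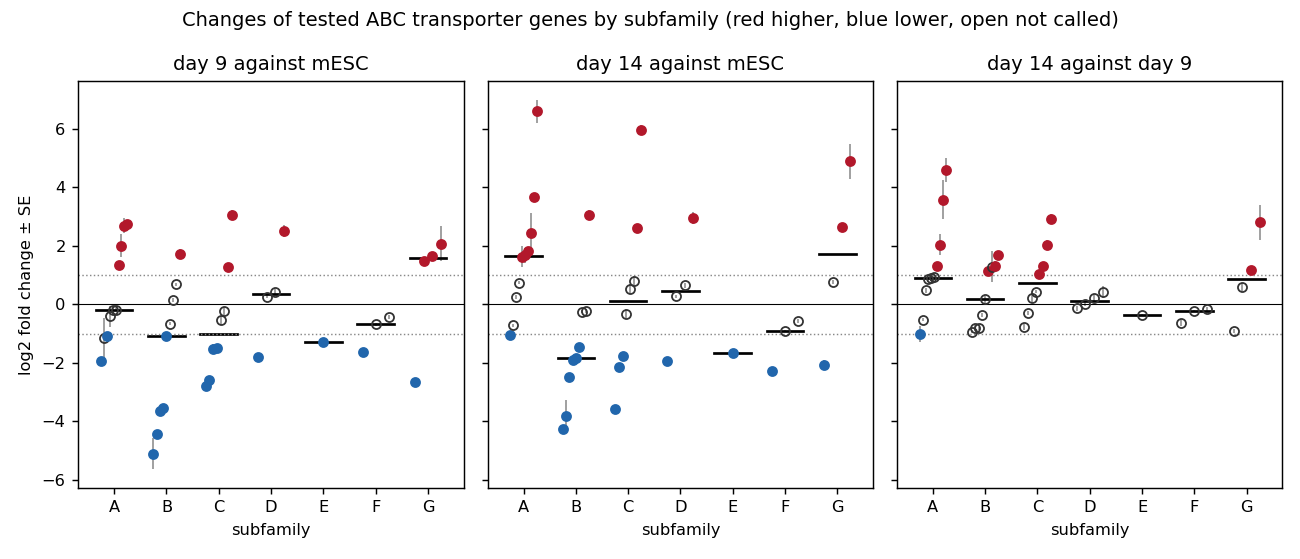
Log2 fold change ± SE of each tested transporter by subfamily in the 3 comparisons; red points rose, blue points fell, open points were not called, and the black bar is the subfamily median. At day 14 against mESC the bar stands at 1.65 in subfamily A and at −1.84 in subfamily B, and between day 14 and day 9 red points outnumber blue by 13 to 1.

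Subfamily C held exporters of conjugates, of which Abcc1, Abcc4 and Abcc5 fell and Abcc3 rose, and the channel subunits Abcc8 and Abcc9. Of its 8 tested genes, 2 rose and 4 fell at day 9 against mESC, with a median of −1.02 (−1.51 to −0.49 over the alternative settings), and 2 rose and 3 fell at day 14, with a median of 0.10 that ran from −1.77 to 0.32 over those settings. Abcc4, an exporter of cyclic nucleotides, prostaglandins and drugs, stood at 2.94, 2.93, 2.94 and 2.89 in mESC, between −0.15 and 0.32 at day 9 and at −0.63, −0.75, −0.53 and −0.61 at day 14. The groups did not overlap. It fell 6.97-fold at day 9 (−2.80 ± 0.10, adjusted p = 1.89e-10) and 11.8-fold at day 14 against mESC (−3.56 ± 0.10, adjusted p = 2.02e-11).

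Abcc1, which exports glutathione conjugates and leukotrienes, stood at 2.47, 2.24, 2.39 and 2.33 in mESC, −0.29, −0.16, −0.23 and −0.21 at day 9 and 0.20, 0.19, 0.20 and 0.24 at day 14. It fell 5.99-fold at day 9 (−2.58 ± 0.05, adjusted p = 2.02e-12) and 4.44-fold at day 14 against mESC (−2.15 ± 0.05, adjusted p = 6.75e-12). Abcc5, another exporter of cyclic nucleotides, stood at 3.44, 3.45, 3.42 and 3.49 in mESC, 2.06, 1.85, 1.85 and 2.09 at day 9 and 1.67, 1.56, 1.72 and 1.76 at day 14. Its log2 fold change was −1.49 ± 0.07 at day 9 and −1.77 ± 0.07 at day 14 against mESC (adjusted p = 1.29e-09 and 2.28e-10), and a probe of another of its transcripts was called at neither day (−0.59 at day 14). Of 12 genes of glutathione synthesis and conjugation, 1 rose and 5 fell at day 9 against mESC, 3 rose and 5 fell at day 14 against mESC, and 4 rose between day 14 and day 9. Over all genes 20.0% rose and 21.0% fell at day 9, 22.8% and 24.1% at day 14, and 10.2% rose between the days. The glutathione synthase gene Gss fell at both days (−2.92 and −2.53), and the microsomal transferase gene Mgst1 rose at both (4.47 and 7.12). The transferase gene Gsta1 fell at day 9 against mESC (−4.83) and rose between day 14 and day 9 (5.71).

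Abcc3 and Abcc2 are hepatic and intestinal exporters of conjugates, at the basolateral and the apical membrane. Abcc3 stood at −4.74, −5.13, −4.63 and −4.61 in mESC, with 3 of 4 arrays above background, −3.21, −3.70, −3.51 and −3.52 at day 9 and −2.14, −2.09, −2.19 and −2.22 at day 14. It rose by 1.29 ± 0.12 at day 9 (adjusted p = 1.35e-06), by 2.62 ± 0.12 at day 14 against mESC (adjusted p = 1.85e-09) and by 1.33 ± 0.12 between day 14 and day 9 (adjusted p = 3.72e-06). With normexp the day 14 call against mESC stayed (1.04), and the day 9 value was 0.19 and not called. Abcc2 stood at −4.39, −4.66, −4.25 and −4.39 in mESC, −4.47, −5.11, −4.62 and −4.38 at day 9 and −3.49, −3.64, −3.50 and −3.79 at day 14. Its rise of 1.04 ± 0.15 between day 14 and day 9 (adjusted p = 0.000108) was lost without day 9 replicate 2 (0.88) or without day 14 replicate 1 (1.00), with normexp (0.62), with quantile normalization (0.86) and with median scaling (0.85). Of 8 tested genes of hepatic uptake and bile acid transport, 1 rose and 4 fell at day 9 against mESC, 3 rose and 4 fell at day 14 against mESC, and 3 rose and 2 fell between day 14 and day 9. Slc22a7, an organic anion carrier, fell in all 3 (−4.60, −6.27 and −1.67), and the uptake carrier gene Slco2b1 was at least 43.1-fold higher at day 14 than in mESC.

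The sulphonylurea receptors Abcc8 and Abcc9 join the potassium channel subunits encoded by Kcnj11 and Kcnj8 to form KATP channels, which link potassium flow to the ATP level of a cell. Abcc9 was above background on no mESC array, where it stood at −7.49, −7.42, −6.89 and −7.53, and stood at −4.74, −4.29, −3.91 and −4.19 at day 9 and −1.42, −1.37, −1.38 and −1.31 at day 14. It was at least 2.11-fold higher at day 9 (adjusted p = 1.14e-08) and at least 15.9-fold higher at day 14 than in mESC (adjusted p = 2.69e-11), and it rose by 2.91 ± 0.17 between day 14 and day 9 (adjusted p = 1.05e-07). Its other probes gave 4.04 and 3.52 at day 14 against mESC, both called, and 0.64 and 0.81 at day 9, neither called. With normexp its day 14 difference was 1.81 and called, and its day 9 difference was 0.20 and not.

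Kcnj8, the gene next to Abcc9 on chromosome 6 in RefSeq's annotation, also stood below background on every mESC array (−7.55, −7.68, −7.50 and −7.66). It stood at −1.61, −1.73, −2.03 and −1.64 at day 9 and 3.40, 3.49, 3.38 and 3.44 at day 14, so its groups were far apart. It was at least 12.2-fold higher at day 9 (adjusted p = 1.93e-13) and at least 442-fold higher at day 14 than in mESC (adjusted p = 3.01e-15), and it rose by 5.18 ± 0.09 between the days (adjusted p = 5.67e-12). Kcnj11 stood at −6.41 to −5.59 in mESC, −5.00 to −3.90 at day 9 and −4.15 to −3.71 at day 14. With no mESC array above background, it was at least 1.82-fold and 2.62-fold higher than in mESC at day 9 and day 14 (adjusted p = 0.000114 and 9.29e-06). Abcc9, Kcnj8 and Kcnj11 passed the brightness filter without mESC. They thus had little room to fall against mESC, and their shared direction there was largely set by the filter.

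Abcc8 followed another course. It stood at −2.04, −2.27, −2.01 and −2.10 in mESC, −3.95, −3.02, −3.73 and −3.76 at day 9 and −1.70, −1.53, −1.71 and −1.42 at day 14. Every day 9 array lay below and every day 14 array above all mESC arrays. It fell by 1.51 ± 0.17 at day 9 against mESC (adjusted p = 5.95e-06, and −0.80 and not called with normexp), rose 4.07-fold between day 14 and day 9 (2.03 ± 0.17, adjusted p = 1.63e-06), and differed by 0.52 ± 0.17 between day 14 and mESC.

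Kcnj8 and Abcc9 are known from pericytes, smooth muscle and heart. The summed level of the smooth muscle and pericyte markers was 3.42 to 3.51 in mESC and reached 7.18 at day 9. It was 6.66 to 6.80 at day 14, below every day 9 array, though a sum follows its brightest genes. Of the 7, Myh11 (2.23) and the pericyte gene Cspg4 (1.26) rose between day 14 and day 9. The other 5 (Acta2, Tagln, Cnn1, Rgs5 and Pdgfrb) had lower means at day 14, down to −0.88, and were not called. The median of the 7 was −0.60. The cardiomyocyte markers stood at 2.37 to 2.55 in mESC, 7.73 to 8.67 at day 9 and 7.72 to 8.12 at day 14, where the days overlapped. Their part in the transporter levels was not tested. Of the remaining members, the drug exporter gene Abcc10 was above background on 1 day 9 and 3 day 14 arrays and called in no comparison, and Abcc6 and Abcc12 were above background on no array.

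**Figure D4:**
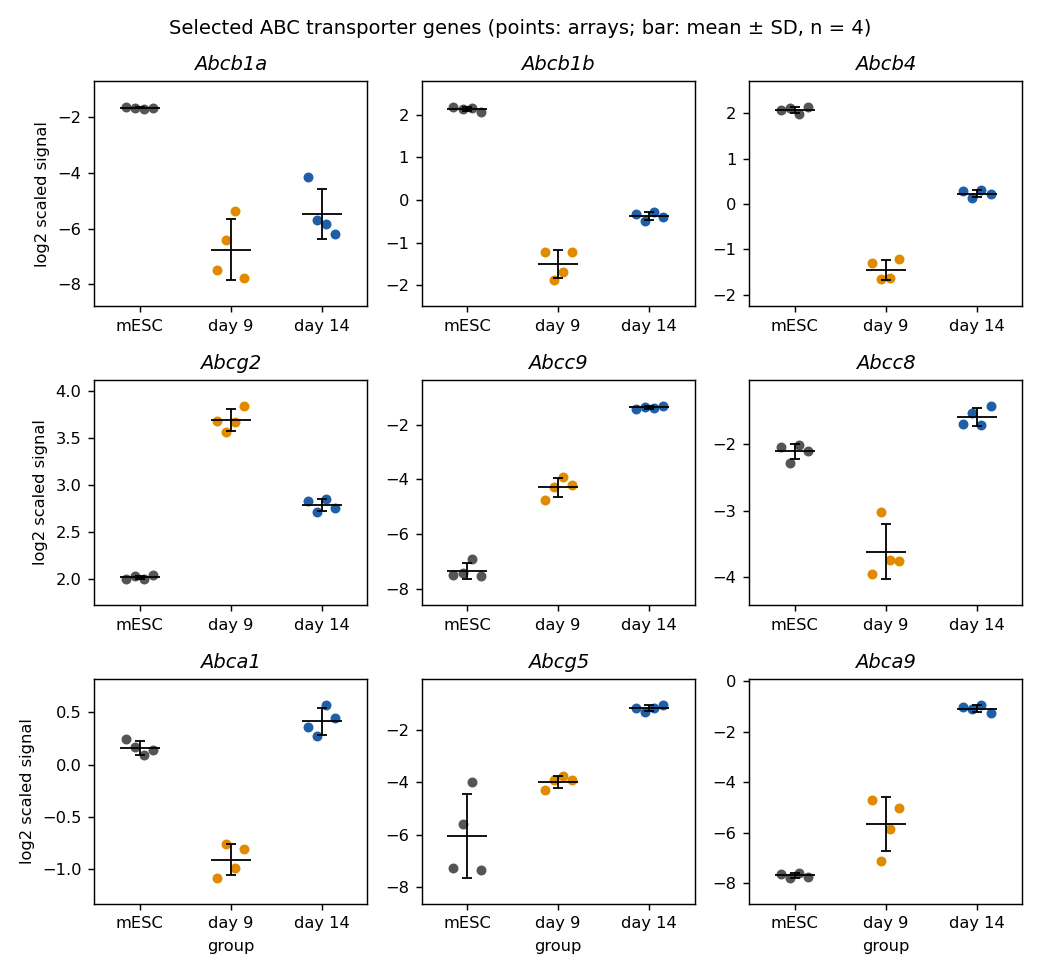
Scaled log2 signal of 9 transporters in mESC and at day 9 and day 14; points are arrays and the bar is the mean ± SD of 4 arrays, with a separate vertical range in each panel. Abcg2 is highest at day 9, Abcc8 and Abca1 are lowest at day 9, and Abcg5 spreads from −7.34 to −4.01 on the mESC arrays.

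In subfamily G, 3 of the 4 tested genes rose and 1 fell at day 9 against mESC, with a median of 1.58, and 2 rose and 1 fell at day 14, with a median of 1.71. Over the alternative settings these medians ran from 0.33 to 1.64 at day 9 and from 0.77 to 1.79 at day 14. Abcg2, the drug and urate exporter of side populations, stood at 2.00, 2.03, 2.00 and 2.04 in mESC, 3.68, 3.56, 3.67 and 3.84 at day 9 and 2.83, 2.71, 2.85 and 2.75 at day 14. No arrays of different groups overlapped, and day 14 lay between. It rose 3.19-fold at day 9 against mESC (1.67 ± 0.06, adjusted p = 1.58e-10), with 1.67 also under normexp and 1.71 from a second probe. At day 14 against mESC the difference was 0.77 ± 0.06, and at day 14 against day 9 it was −0.90 ± 0.06, both under the size a call needs. The second probe passed that size between the days (−1.03, lower), as did the first with normexp and with median scaling (−1.09), and under quantile normalization the day 14 difference from mESC did (1.06).

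Abcg1 and Abcg4 pass sterols to lipoproteins, Abcg4 mainly in the nervous system. Abcg1 stood at 0.95, 1.01, 1.03 and 0.86 in mESC, −2.07, −1.26, −1.51 and −1.91 at day 9 and −1.10, −1.08, −1.10 and −1.08 at day 14. It fell 6.28-fold at day 9 (−2.65 ± 0.14, adjusted p = 6.98e-09) and 4.16-fold at day 14 against mESC (−2.06 ± 0.14, adjusted p = 5.88e-08). Abcg4 stood at −4.01, −4.05, −3.84 and −4.11 in mESC, −2.57, −2.57, −2.51 and −2.42 at day 9 and −1.38, −1.31, −1.42 and −1.31 at day 14. It rose by 1.49 ± 0.06 at day 9 (adjusted p = 7.22e-10), by 2.65 ± 0.06 at day 14 against mESC (adjusted p = 4.87e-12) and by 1.16 ± 0.06 between day 14 and day 9 (adjusted p = 4.27e-08). With normexp the first and last of these were 0.53 and 0.85, not called. Against mESC, Abcg4 thus rose at both days and Abcg1 fell at both.

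Abcg5 and Abcg8 encode the partners that form the sterol exporter of liver and intestine. RefSeq holds 2 starts of Abcg8 on chromosome 17, and the nearer faces away from the start of Abcg5. The farther has 6708 bases between it and the start of Abcg5, and its promoter shares 0 bases with that of Abcg5. The promoter of Abcg5, at chr17:84682962-84683261 on the minus strand of GRCm38.p6, is shown because 209 of its bases are also in a promoter of Abcg8 on the other strand, with 109 bases between the starts. Capitals mark the same motifs as above.
Abcg5: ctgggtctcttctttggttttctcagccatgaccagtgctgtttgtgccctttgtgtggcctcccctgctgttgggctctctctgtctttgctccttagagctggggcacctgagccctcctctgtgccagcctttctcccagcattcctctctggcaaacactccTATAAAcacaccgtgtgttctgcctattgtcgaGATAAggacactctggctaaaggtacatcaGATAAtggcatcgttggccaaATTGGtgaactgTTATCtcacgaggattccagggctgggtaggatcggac
It held a TATA box, a CCAAT box and 3 GATA motifs. Any match to these was held by 13.6%, 37.4% and 25.4% of all promoters, and how many held 3 GATA motifs was not counted.

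Abcg5 stood at −7.28, −5.60, −4.01 and −7.34 in mESC, −4.30, −3.92, −3.78 and −3.91 at day 9 and −1.16, −1.31, −1.17 and −1.04 at day 14. It was above background on 1 mESC array, whose value lay among those of day 9. It was the only called transporter whose groups overlapped, in the comparison of day 9 with mESC. It rose by 4.89 ± 0.60 at day 14 against mESC (adjusted p = 1.12e-05) and by 2.81 ± 0.60 between day 14 and day 9 (adjusted p = 0.00177). At day 9 against mESC it gave 2.08 ± 0.60 (adjusted p = 0.00725), and 0.12 and no call with normexp. Abcg8 was above background on at most 2 of 12 arrays and not tested, and Abcg3 was above background on none. Of the 7 tested hepatocyte and visceral endoderm markers given with Abcb11, 6 rose at both days against mESC, and Hnf4a was called at neither. Between day 14 and day 9, 3 of them rose, among them Alb (8.53) and Afp (1.62), and Apob fell (−2.26), with a median of −0.09. Their part in the level of Abcg5 was not tested.

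Of 15 genes of sterol handling around Abca1, Abcg1 and Abcg5, 3 rose and 1 fell at both days against mESC, and 1 rose between day 14 and day 9. Those that rose were Apoa1 (at least 82.8-fold at day 9 and 72.6-fold at day 14), the cholesterol acyltransferase gene Soat1 (2.61 and 2.56) and the plasma acyltransferase gene Lcat (at least 1.66-fold and 3.54-fold higher), which also rose between the days (1.09). The sterol hydroxylase gene Cyp27a1 fell (−1.15 and −1.47). Of 8 tested nuclear receptors that regulate transporters, 2 rose and 3 fell at day 9 against mESC, 4 rose and 2 fell at day 14 against mESC, and 3 rose between day 14 and day 9. The xenobiotic receptor gene Nr1i2 was at least 3.38-fold lower at day 9 than in mESC, and at least 3.54-fold higher at day 14 than at day 9, when no day 9 array was above background.

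Subfamily D serves fatty acid import into peroxisomes, apart from Abcd4, which acts on cobalamin in lysosomes. Its 4 genes held 1 that rose and 1 that fell at both days, near the shares over all genes. The medians were 0.35 at day 9 (0.09 to 0.44 over the alternative settings) and 0.46 at day 14 against mESC (0.14 to 0.54). Abcd2 was above background on no mESC array (−7.15, −7.30, −7.14 and −7.18), and stood at −5.37, −4.25, −4.34 and −4.75 at day 9 and −4.38, −4.09, −4.27 and −4.27 at day 14. Abcd2 was at least 1.61-fold higher at day 9 (adjusted p = 2.49e-07) and at least 2.16-fold higher at day 14 than in mESC (adjusted p = 5.07e-08), and neither call was kept with normexp (0.18 and 0.66). Abcd4 stood at 2.92, 2.59, 2.78 and 2.62 in mESC, 0.86, 0.96, 0.85 and 1.07 at day 9 and 0.85, 0.64, 0.87 and 0.84 at day 14. It fell by 1.79 ± 0.09 at day 9 and by 1.93 ± 0.09 at day 14 against mESC (adjusted p = 2.32e-09 and 9.85e-10).

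The peroxisomal membrane protein gene Abcd3 gave 0.26 at day 9 and 0.27 at day 14 against mESC, neither called. The sign of Abcd3's difference turned with the mean over its probes (−0.11 at both days) and, at day 14, with median scaling (−0.05). Of 11 peroxisome genes 1 rose and 3 fell at day 9 against mESC, 1 rose and 2 fell at day 14 against mESC, and none of them was called between the days. The thioesterase gene Acot8 fell at both days (−1.50 and −1.69).

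The soluble members of subfamilies E and F were lower or uncalled. Abce1, which splits ribosomes for reuse, stood at 4.90, 4.83, 4.91 and 4.89 in mESC, 3.58, 3.62, 3.57 and 3.62 at day 9 and 3.16, 3.20, 3.27 and 3.27 at day 14. It fell 2.44-fold at day 9 (−1.29 ± 0.04, adjusted p = 5.92e-11, and −0.98 with quantile normalization, where it was not called) and 3.15-fold at day 14 against mESC (−1.66 ± 0.04, adjusted p = 6.02e-12). Abcf2 stood at 2.92, 3.02, 3.08 and 3.05 in mESC, 1.48, 1.52, 1.45 and 1.06 at day 9 and 0.75, 0.91, 0.64 and 0.66 at day 14. It fell by 1.64 ± 0.10 at day 9 (adjusted p = 2.52e-08) and by 2.28 ± 0.10 at day 14 against mESC (adjusted p = 1.08e-09). Abcf1, which acts in translation initiation, gave −0.68 and −0.91, and Abcf3 gave −0.43 and −0.57, neither called. A second probe of Abcf1 was called lower at day 14 (−1.22), as was its first under normexp (−1.04), median scaling (−1.23) and the mean over probes (−1.06). Of 11 partners in ribosome recycling and initiation, none rose, 3 fell at day 9 and 5 fell at day 14 against mESC, among them the initiation factor gene Eif2s2 (−1.97 and −2.08) and the release factor gene Etf1 (−1.44 and −1.85), and none was called between the days.

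Between day 14 and day 9 more transporters rose than fell, and 25 were not called. Of the 39, 13 rose and 1 fell, where 10.2% of all genes rose and 3.61% fell (13.8% in either direction), and the median log2 fold change was 0.43, beside −0.09 over all genes. The 13 were Abca1, Abca6, Abca8a and Abca9, Abcb1b, Abcb4 and Abcb9, Abcc2, Abcc3, Abcc8 and Abcc9, and Abcg4 and Abcg5. No member of subfamilies D, E or F was called between the days. Abca6 and Abca8a passed the brightness filter through day 14 only, so they had little room to fall from day 9. With median scaling 10 rose and 4 fell. With normexp 7 rose (Abca1, Abca9, Abcb4, Abcb9, Abcc8, Abcc9 and Abcg5) and Abcg2 fell in place of Abca4, and with only probes above background on all arrays 7 rose.

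Comparisons of both days with mESC share the mESC arrays, so the courses are given as values. Of the 13 that rose between the days, 6 had also risen at both days against mESC (Abca9, Abcb9, Abcc3, Abcc9, Abcg4 and Abcg5). Abcb1b and Abcb4 had fallen at both days against mESC and stood higher at day 14 than at day 9. Abca1 and Abcc8 had fallen at day 9 and were not called at day 14 against mESC, Abca6 and Abca8a were called higher at day 14 against mESC and not at day 9, and Abcc2 was called against mESC at neither day.

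**Figure D5:**
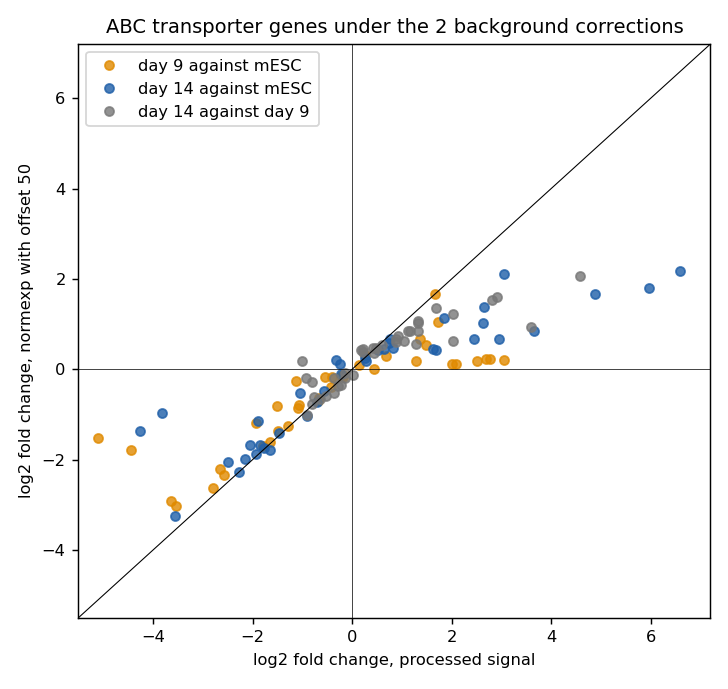
Log2 fold change of the tested transporters from the processed signal (horizontal) and after normexp with an offset of 50 (vertical), in the 3 comparisons; each point is 1 gene and the diagonal marks equal values. Most points far from 0 on the horizontal axis lie closer to 0 on the vertical axis, such as Abcc9 at day 14 against mESC, whose value after normexp was 1.81.

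The 3 members of the wider superfamily whose symbols the rule leaves out rose at day 14 against mESC. Cftr, a chloride channel of subfamily C, was at least 1.48-fold higher at day 9 and 1.65-fold higher at day 14 than in mESC. Tap1 and Tap2, which pass peptides into the endoplasmic reticulum for antigen presentation, rose by 1.18 ± 0.08 and 1.34 ± 0.14 at day 14 against mESC (adjusted p = 3.06e-08 and 3.19e-06), and gave 0.30 and 0.02 at day 9. Between day 14 and day 9 Tap2 rose by 1.31. Of 6 tested genes of peptide loading, 1 rose and 1 fell at day 9 against mESC, 3 rose at day 14 against mESC and 4 rose between day 14 and day 9. The immunoproteasome gene Psmb8 rose by 4.05 at day 14 against mESC and by 3.05 at day 14 against day 9. The macrophage markers given above rose over the same arrays, and their part was not tested.

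Between day 14 and day 9, 3 of the 6 pluripotency markers fell, 1 of the 8 cardiomyocyte markers fell, and of the 7 fibroblast markers 2 rose and 1 fell. Of 6 endothelial genes 4 rose and 2 fell at day 9 against mESC, 3 rose and 2 fell at day 14 against mESC, and 4 fell between day 14 and day 9. Of 5 tested erythroid genes 4 rose and 1 fell at day 9 against mESC, 1 rose and 1 fell at day 14 against mESC, and 4 fell between the days. Of 6 epithelial genes 2 rose and 1 fell at day 9 and 4 rose and 1 fell at day 14 against mESC, with 2 that rose and 1 that fell between the days. Of 5 tested neural genes 2 rose and 1 fell at each day against mESC, and 1 rose between the days.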

How the data were processed

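Total RNA of 12 samples in 3 groups of 4 was read on 1-colour Agilent arrays. Per the file headers, the deposited processed signal is a linear intensity from which background and a spatial trend were taken away, left unscaled across arrays. It was extracted with Agilent Feature Extraction 12, per the submitters' processing notes. The deposited mean or median signal and local background, used for normexp, are intensities too, and the deposited flags of 0 or 1 mark spots above background, saturated spots and outliers, per the file headers. The deposited value table held the same intensities, with 0 differences.

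Of 45018 spots, 43379 were not controls. Outlier spots were left out, 0 were saturated, log2 signals were reduced by each array's 75th percentile over spots, and spots of a probe were averaged. The log2 values were computed here from the deposited intensities. A probe was tested if well above background on at least 3 of 4 arrays of a group (28377 probes), and the brightest tested probe stood for a gene (20876 genes). Probes were named through RefSeq accessions in a table of GRCm38.p6, 28223 of them. The array's annotation refers to another build, so no gene positions are given beyond the RefSeq promoters. The number of arrays limits the precision.

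Groups were compared with limma (version 3.58.1, under R 4.3.3) in a fit of group means to all 12 arrays, two-sided, with Benjamini-Hochberg adjustment over all genes, and the method was tested on simulated data. The members and the lists were chosen with earlier results of these data known. The rule named the members, gave values on every array for the called members with the largest changes in each subfamily (up to 4 a direction) and for those called between the days, and named up to 2 called genes of each list. Cyp27a1 was named after its values were seen. Values of a few single genes are not reported here, and the counts include them. Alternatives were normexp, quantile and median scaling, the value table, other filters, the mean over probes, the 8 arrays compared, an intensity trend, a replicate block and each array left out.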

Additional observations from a re-analysis of the deposited data

Results flagged for a closer look

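Of 117 groups of 4 values, 1 for each tested transporter in each sample group, 6 held an array that stood apart by Dixon's criterion, where chance gives about 1 in 20. Abca3 stood at −1.05 on day 9 replicate 1 and at −1.13 on the others. Abca7 stood at 1.85 on day 14 replicate 1, with the others at 1.75 to 1.77, and Abcc1 at 0.24 on day 14 replicate 4, with the others at 0.19 to 0.20. Abcc9 stood at −6.89 on mESC replicate 3, with the others at −7.53 to −7.42, all below background. Abcd4 stood at 0.64 on day 14 replicate 2, with the others at 0.84 to 0.87, and Abcf2 at 1.06 on day 9 replicate 4, with the others at 1.45 to 1.52.

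For 4 transporters every day 14 array lay on one side of all mESC arrays and every day 9 array on the other. How many of all genes did so was not counted, so whether 4 is many cannot be told. Day 14 against day 9 gave 1.32 for Abca1 and 2.03 for Abcc8, both called. It gave 0.93 for Abca3 and −0.93 for Abcb10, both under the size a call needs. Both days were set against the same mESC arrays, and day 14 against day 9 is the direct test of the difference.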

How the results depend on the processing

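Of 117 gene results (39 transporters in 3 comparisons), 81 were tested in all 23 alternatives, and 58 of these kept their call and direction in all. The other 36 were not tested with only probes above background on all arrays, and 21 of them changed in an alternative that tested them. Normexp, which raises dim signals, gave 2 higher at day 9 and 7 at day 14 against mESC, and 7 higher and 1 lower between day 14 and day 9, the 1 being Abcg2 in place of Abca4. With probes above background on all arrays, where fewer genes are tested, 4 rose at day 9 and 3 at day 14 against mESC, and 7 rose and 0 fell between the days. The count lower between the days was 2 with quantile normalization, 4 with median scaling and 0 with the percentile over probes, an alternative chosen after seeing the data. Leaving out 1 array gave 11 higher and 14 to 16 lower at day 9, 12 higher and 14 lower at day 14, and 12 to 14 higher and 0 to 1 lower between the days, with 0 lower without day 9 replicate 1, day 14 replicate 2 or day 14 replicate 4.

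Signs turned with normexp for Abcb10 (0.11) and Abcc10 (0.20) at day 14 against mESC, and for Abca4 (0.19) and Abcd3 (−0.12) between the days. They turned with quantile normalization for Abca7 at day 9 (0.0149), and with median scaling for Abca1 (−0.0657) and Abcd3 (−0.0458) at day 14 against mESC and Abcb11 (−0.0164) and Abcd3 (−0.18) between the days. They turned for Abcd3 with the mean over probes (−0.11 at both days against mESC) and, between the days, without day 9 replicate 1 or day 14 replicate 4, with a range of −0.0127 to 0.0546 over the arrays left out. Of these only Abca4 was called. The cause was not tested. The median of all genes was −0.16, −0.19 and −0.09 in the 3 comparisons, −0.29, −0.51 and −0.28 with median scaling and −0.15, 0.10 and 0.16 with normexp. Calls over all genes were 8565, 9784 and 2882, and 4749, 5835 and 1226 with normexp and 5485, 6433 and 1307 with probes above background on all arrays.

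Replicate numbers gave little sign of pairing: deviations of same-numbered arrays correlated at −0.07 to 0.18, 1 of 12 above 0.1, and 5 of 12 matched their own number best. Between day 14 and day 9, replicates 1, 2 and 3 matched their own number best, at 0.18, 0.04 and 0.03. Weak correlations cannot show that the samples were not paired. With the replicate block, 11 rose and 15 fell at day 9 and 12 rose and 14 fell at day 14 against mESC, 13 rose and 1 fell between the days, and no transporter's call changed. Signal near background limits the sizes given for Abca4, Abca6, Abca8a, Abca8b, Abca9, Abcb1a, Abcc9, Abcd2 and Abcg5.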

Other observations

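The base composition of the transporters' promoters was set beside that of all promoters. Of the 45 RefSeq promoters of 38 members, 24 (53.33%) had a ratio of observed to expected CpG pairs over 0.6, beside 35.79% of 32851 promoters of all genes. Of the promoters of members that rose at day 14 against mESC, 3 of 8 passed that ratio, of those that fell 7 of 12, and of those not called 10 of 14. The median share of G and C was 54.33%, 59.33% and 62.33% in these groups. The members were not chosen at random and share families of related genes, so these are descriptions without a test.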
